A study of Mus musculus with 6 samples.

Results

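The genes described here are 37 immediate early and activity genes, chosen by name: a probe set belonged to them when its symbol in the platform annotation was 1 of the 37. All 37 were found, on 68 probe sets, among 18193 named genes on the array, and 18 of them had more than 1 probe set. Arrays were run on L1 cord, the first lumbar segment, of male SCID mice, a strain that lacks mature B and T lymphocytes, aged 9 weeks at the start and 15 weeks at sampling, which was 6 weeks after injection. The N-inv mice, the neural invasion model, received cells of Capan-1, a human pancreatic cancer line, inside the left sciatic nerve. The SC mice carried the same cells under the skin, and the PBS mice were the model made with buffered saline. Each of the 3 groups had 2 arrays, 6 in all. Whether a group's arrays are different animals is not stated in the labels, so p-values measure the spread between these arrays, which may be technical. Because the tissue was a whole segment, fewer cells of a type and less RNA per cell cannot be told apart.

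Immediate early genes are transcribed within minutes of a stimulus and need no new protein synthesis. In neurons, calcium entry and the ERK kinases act on transcription factors already present, mainly CREB at cyclic AMP response elements (CRE) and SRF with its partners at CArG boxes. The products are themselves transcription factors (the Fos, Jun, Egr and Nr4a families), proteins of the synapse such as Arc and Homer1, and regulators that end the signal, such as the dual-specificity phosphatases. In the spinal cord, Fos is widely used to mark neurons activated by painful stimulation, and several of these genes also respond in glia and vessels to cytokines, stress and glucocorticoids.

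The promoters are shown because CREB and SRF, named above, act through CRE and CArG motifs. RefSeq windows of the 250 bases before the start site (assembly GRCm38.p6) were found for 30 of the 37 genes, 40 windows in all. Arc, Crem, Egr1, Egr3, Ier2, Sik1 and Trib1 had no window in the set searched, which left out part of the genome. Their promoters were therefore not searched, and the background windows given below come from the same set. The 3 windows below run 5′ to 3′ on the gene's strand, with capitals marking CRE motifs (TGACGTCA or its short form TGACG, searched on both strands as TGACG and CGTCA) and, where present, CArG boxes and AP-1 motifs. Fos is shown as the reference gene of the class, Dusp1 as a gene that stood high in 1 SC array, and Nr4a3 as a gene that was low in N-inv.
Fos, chr12:85473640-85473889, plus strand: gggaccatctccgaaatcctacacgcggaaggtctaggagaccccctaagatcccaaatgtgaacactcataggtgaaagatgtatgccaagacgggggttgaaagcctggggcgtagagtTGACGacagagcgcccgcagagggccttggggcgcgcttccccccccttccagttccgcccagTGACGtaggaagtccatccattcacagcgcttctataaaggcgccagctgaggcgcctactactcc
Dusp1, chr17:26508473-26508722, minus strand: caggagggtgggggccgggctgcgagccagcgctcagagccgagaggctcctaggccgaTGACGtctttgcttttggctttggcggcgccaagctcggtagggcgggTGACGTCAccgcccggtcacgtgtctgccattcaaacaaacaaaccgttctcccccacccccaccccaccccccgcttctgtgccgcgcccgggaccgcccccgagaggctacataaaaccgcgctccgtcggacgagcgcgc
Nr4a3, chr4:48045055-48045304, plus strand: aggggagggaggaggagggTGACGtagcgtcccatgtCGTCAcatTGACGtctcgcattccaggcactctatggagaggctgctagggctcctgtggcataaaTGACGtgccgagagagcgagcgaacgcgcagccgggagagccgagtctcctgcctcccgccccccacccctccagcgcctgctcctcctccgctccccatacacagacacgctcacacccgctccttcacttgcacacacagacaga

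The full CRE, TGACGTCA, which reads the same on both strands, lay in 4 of the 40 windows (10%) against 1.56% of 32536 mouse windows of the same length. The 4 genes were Dusp1, Maff, Btg2 and Plk2. Their CREs are set side by side with 10 bases on either side, the CRE in capitals, and begin 143, 29, 166 and 62 bases before the start site in that order.
Dusp1, chr17:26508598-26508625, minus strand: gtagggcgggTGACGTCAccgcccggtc
Maff, chr15:79347481-79347508, plus strand: gctggggcggTGACGTCActgcatgact
Btg2, chr1:134079304-134079331, minus strand: ttcccaataaTGACGTCAgtgagcgatg
Plk2, chr13:110394972-110394999, plus strand: gcgctcgccgTGACGTCAcgaggccccg
The short form TGACG, which every full CRE contains, lay in 27 of 40 windows (67.5%, against 17.9% of all windows) from 21 genes. A CArG box lay in 7 windows (17.5%, against 1.48%) from Egr2, Dusp5, Srf and Zfp36. An EGR motif (GCGTGGGCG or GCGGGGGCG, both strands) lay in 8 windows (20%, against 3.09%), and an AP-1 motif (TGACTCA, both strands) in 1, of Csrnp1 (2.5%, against 4.45%). Windows of 1 gene can overlap, and several of the 7 windows with a CArG box were of Egr2. A match describes letters in the window, not a bound site. Sites outside the windows were not searched. The lack of a match, as for a CArG box in Fos, therefore does not mean that the gene lacks the site.

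All values are intensities scaled to a common array median of 256.2, and log2 differences are of log2(intensity + 25.6), which understates the change of dim genes. The SC arrays stood apart: their median correlation with the other arrays was 0.972 and 0.971, against 0.981 for each of the other 4. Xist, normally expressed in female cells, reached 13065 in SC replicate 2, where the other 5 arrays ran from 138.6 to 228.5, although all mice are labelled male; the Y-linked gene Eif2s3y was measured in every array, from 1344 to 3152. The ratio of 3′ to 5′ control probes of Actb, which reflects RNA quality, was 3.81 and 4.70 for SC and 3.05 to 3.57 elsewhere. The same ratio of Gapdh did not set SC replicate 2 apart, at 3.52 and 3.38 for SC and 2.82 to 3.38 elsewhere. Cord markers were present: the glycine transporter Slc6a5 lay between 12401 and 17529 and the neuron-wide Snap25 between 45751 and 59034. None of the 3 measured markers of sensory ganglion neurons reached the intensity filter of 147.7, and 1 of 3 forebrain markers (Neurod6) and 1 of 5 skeletal muscle markers (Acta1) did. For the tested early genes, the counts and medians of the SC comparisons are given with both SC arrays and without each. Single early genes that turn on 1 SC array are given with the value of that array beside the others. For the other gene lists, results without an SC array are given only where stated. In the main fit every SE and p-value comes from 1 residual spread shared by all 3 groups. Those of N-inv against PBS therefore also hold the gap between the SC arrays.

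In the nerve tumour model the early genes showed no common shift against PBS. Of the 32 genes above the filter 16 were higher and 16 lower in N-inv. Their median log2 difference was -0.02, with a range from -0.70 for Sik1 to 0.52 for Egr2. Among all 12614 named genes tested, 59.9% were higher and the median was 0.04. In limma 0 of the 32 passed an adjusted p of 0.05, as did 0% of all genes, and each of the 32 had an adjusted p of 1 to 3 digits. At an unadjusted p under 0.05, 1 was higher (Junb) and 2 were lower (Sik1 and Nr4a3), where 2.19% and 1.17% of all genes were so. The arrays did not overlap for 7 genes on the higher side and 8 on the lower, beside 25.2% and 12.6% of all genes. The array-by-array map of the 32 genes shows no column of N-inv that is of 1 colour throughout.

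**Figure D1:**
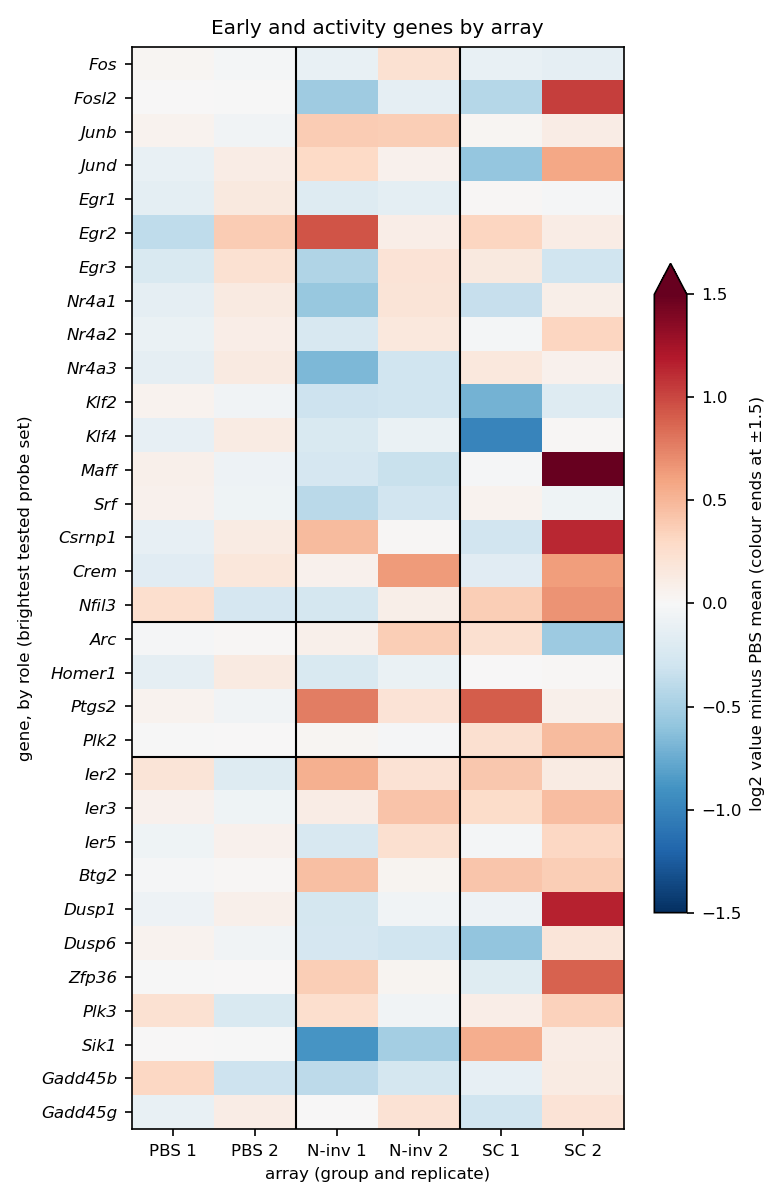
Colour map of the 32 tested early and activity genes (rows, by role) in the 6 arrays (columns). Colour is the log2 value minus the PBS mean of that gene, ending at 1.5; Maff in SC replicate 2 lies beyond that end, and Fosl2, Csrnp1, Dusp1 and Zfp36 are dark in that array; outside it the strongest colours are Klf4 and Ptgs2 in SC replicate 1 and Sik1 and Egr2 in N-inv replicate 1.

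Within the AP-1 family, Fos measured 6704 and 6458 (PBS), 6085 and 7742 (N-inv) and 6093 and 5980 (SC). The N-inv arrays lie on both sides of the PBS arrays, and the log2 difference was 0.06 ± 0.18 (SE). Junb, a Jun protein that pairs with Fos, measured 416.9 and 387.9 (PBS), 532.3 and 526.3 (N-inv), and 412.4 and 435.8 (SC). Both N-inv arrays of Junb lay above the other 4, at 529.3 ± 4.24 against 402.4 ± 20.5 in PBS (SD, n = 2 each), a difference of 0.38 ± 0.15 (SE). It was the 1 gene of the 32 with both N-inv arrays above all controls, a position held by 10.8% of all genes. Against SC the Junb difference was 0.30 ± 0.15, and limma gave an adjusted p of 0.616. The summed level of microglial markers, 5 of 5 above the filter, was also highest in N-inv, at 25090 and 20880 against 15720 and 16380 (PBS) and 13060 and 14760 (SC), and its part in the Junb values was not tested. Jund, the constitutive Jun protein, spread more within SC (9351 and 20969) than between the other arrays, which ran from 12958 to 17225.

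Egr1, a zinc finger factor induced by synaptic activity, measured 6032 and 7383 (PBS), 5829 and 6030 (N-inv), and 6781 and 6589 (SC). The N-inv arrays were the lowest 2 of the 6, though nearly level with PBS replicate 1, and the log2 difference was -0.17 ± 0.17 (SE) from each control group. Egr2, which also drives the myelin program of Schwann cells, measured 1263 and 695.4 (N-inv) against 489.1 and 847.5 (PBS), so the groups overlapped. A dimmer Egr2 probe set read 1076 and 604.9 (N-inv), 505.2 and 751.5 (PBS) and 367.5 and 489.8 (SC). N-inv lay above SC there, by 0.89 ± 0.32, with an adjusted p of 0.513 in limma, while the brighter probe set gave 0.31 ± 0.35. Egr3 overlapped between all 3 groups, from 492.8 to 804.4 over the 6 arrays.

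The Nr4a genes encode orphan nuclear receptors that are induced early in neurons and immune cells. Nr4a3 measured 331.4 and 438.1 (N-inv), 493.5 and 596.8 (PBS), and 608.2 and 568.7 (SC). Both N-inv arrays of Nr4a3 lay below all 4 controls. The log2 difference was -0.48 ± 0.20 (SE) from PBS and -0.59 ± 0.20 from SC, with adjusted p of 1 and 0.483 in limma. A dimmer Nr4a3 probe set, not tested, read 79.4 and 21.8 (N-inv), 50.0 and 50.9 (PBS) and 151.4 and 18.0 (SC). Another read 58.4 and 47.7 (N-inv), 62.5 and 59.3 (PBS) and 70.7 and 31.2 (SC). On both of these N-inv overlapped with SC. Nr4a1 did not separate, at 684.7 and 1170 (N-inv) against 931.9 and 1125 (PBS) and 798.9 and 1090 (SC). Nr4a2 had 4 probe sets above the filter, with differences from PBS between -0.53 and -0.05, and the brightest overlapped between all 3 groups.

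Sik1, a salt-inducible kinase that CREB induces and that in turn restrains CREB coactivators, had the lowest log2 difference of the 32 genes between N-inv and PBS. It measured 79.5 and 110.7 (N-inv), 169.6 and 167.5 (PBS), and 257.8 and 184.3 (SC). The highest N-inv array was below the lowest control array. The log2 difference was -0.70 ± 0.22 (SE) from PBS and -1.03 ± 0.22 from SC, with adjusted p of 1 and 0.445 in limma. The N-inv mean of 95.1 ± 22.0 (SD, n = 2) was under the filter cutoff, so Sik1 was tested through its control arrays. A dimmer Sik1 probe set, not tested, read 66.0 and 90.9 (N-inv), 88.5 and 69.8 (PBS) and 84.4 and 35.4 (SC), with overlap between all 3 groups.

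Srf, the factor that binds CArG boxes, measured 733.0 and 800.8 (N-inv), 1027 and 937.1 (PBS), and 1022 and 936.6 (SC) on the brightest probe set. The differences were -0.35 ± 0.16 and -0.34 ± 0.16 (SE), with adjusted p of 1 and 0.593 in limma. The other Srf probe set lay the opposite way from PBS, at 281.6 and 432.1 (N-inv) against 216.3 and 332.6 (0.35 ± 0.27), and the mean of both probe sets gave 0.00. With Egr1, Nr4a3, Sik1 and Maff, Srf made up the 5 of 32 genes whose N-inv arrays both lay below the other 4 arrays, a position held by 3.65% of all genes. The plot of values by array shows these separations beside Fos.

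**Figure D2:**
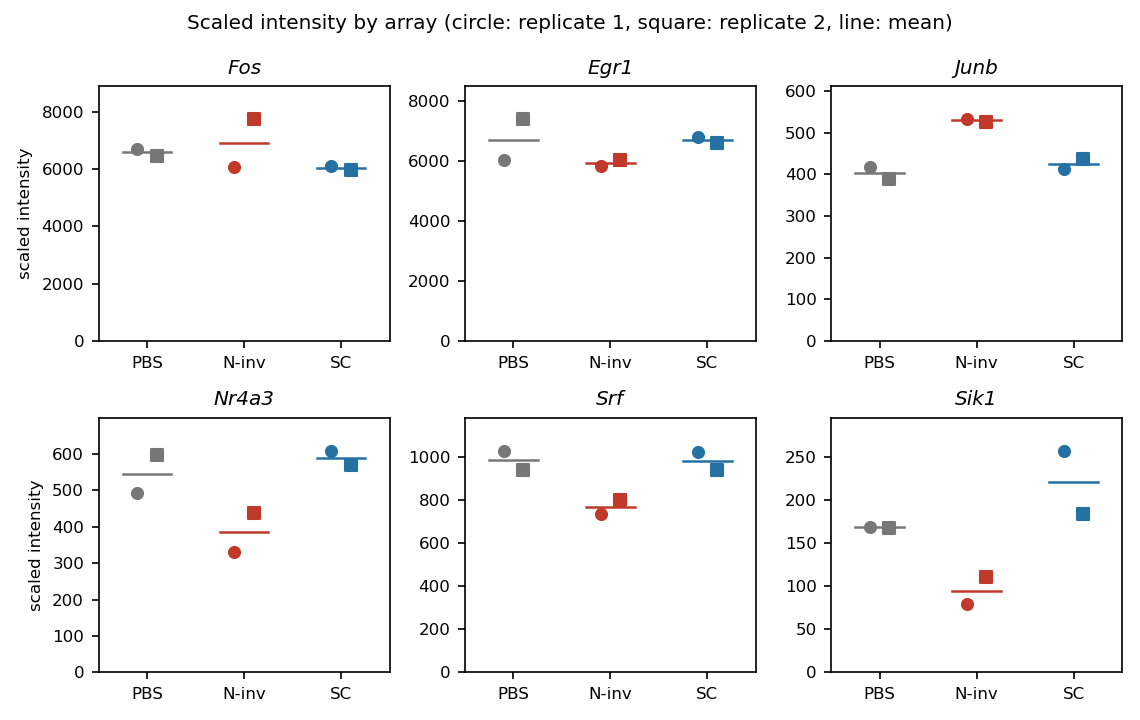
Scaled intensity (linear axis from 0) of 6 genes in the 3 groups, with circles for replicate 1, squares for replicate 2 and a line at the mean. Junb lies above and Nr4a3, Srf and Sik1 lie below both control groups in N-inv, while Fos overlaps with PBS.

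Of the remaining transcription factors, Klf2, a factor prominent in endothelium, measured 737.8 and 743.6 (N-inv) and 549.6 and 801.5 (SC) against 954.9 and 883.4 (PBS). It was lower than PBS in both tumour groups without overlap, with log2 differences of -0.30 ± 0.21 and -0.45 ± 0.21 (SE), with adjusted p of 1 and 0.667 in limma. The SC value was -0.71 without SC replicate 2 and -0.19 without SC replicate 1. The sum of 6 endothelial markers was 9345 and 10350 (PBS), 10150 and 12280 (N-inv) and 8388 and 9667 (SC). Of the 6, 5 passed the filter and Pecam1 did not. The part of endothelial content in the Klf2 values was not tested. Klf4, its relative, was lowest in SC replicate 1, at 779.0 against 1336 to 1715 in the other 5 arrays, and its dimmer probe set read 12.6 there against 206.7 to 443.2.

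Crem, which encodes CREB-like repressors and activators, measured 452.1 and 685.4 (N-inv) against 381.3 and 486.8 (PBS). Its other tested probe set read 455.6 and 535.6 (N-inv) and 375.5 and 644.0 (SC) against 346.0 and 355.6 (PBS). There both tumour groups lay above PBS without overlap, by 0.47 ± 0.26 (SE) in N-inv and 0.46 ± 0.26 in SC. Nfil3, a bZIP repressor of the circadian output, measured 180.5 and 237.7 (N-inv), 267.4 and 182.7 (PBS) and 293.9 and 368.7 (SC). Both SC arrays of Nfil3 lay above the other 4. The difference of N-inv from SC was -0.61 ± 0.24, with an adjusted p of 0.536 in limma.

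Arc, Plk2, Ptgs2 and Homer1 were grouped as neuronal effectors. Arc, which controls AMPA receptor endocytosis, measured 566.6 and 699.7 (N-inv), 526.0 and 543.6 (PBS), and 636.0 and 357.1 (SC). N-inv lay just above PBS (0.23 ± 0.27, SE) and the highest SC array lay between the N-inv values and the lowest below all other arrays. Plk2, a kinase of synaptic homeostasis whose promoter holds a full CRE, measured 1681 and 1636 (N-inv), 1648 and 1656 (PBS), and 1954 and 2298 (SC). Both SC arrays of Plk2 were the highest of the 6, by 0.35 ± 0.16 over PBS, with an adjusted p of 0.665 in limma. Ptgs2, which encodes cyclooxygenase 2, measured 284.8 and 183.9 (N-inv) and 316.6 and 165.5 (SC) against 163.6 and 149.2 (PBS), and its difference from PBS was 0.49 ± 0.32 in each tumour group. Leaving out 1 array moved both: the SC value was 0.07 without SC replicate 1 and 0.91 without SC replicate 2, and the N-inv value was 0.20 without N-inv replicate 1 and 0.77 without N-inv replicate 2.

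Homer1, a scaffold of metabotropic glutamate receptors with a short activity-induced form and longer constitutive ones, had 4 tested probe sets. The brightest overlapped between N-inv and PBS and lay at 1884 to 2442 over all arrays. The dimmest of the 4 read 252.6 and 267.9 (PBS), 213.6 and 225.4 (N-inv), and 138.5 and 131.9 (SC), so the groups were fully apart. Its log2 difference was -0.83 ± 0.15 (SE) in SC against PBS and 0.61 ± 0.15 in N-inv against SC, with adjusted p of 0.50 and 0.445 in limma. The brightest probe set gave 0.01 ± 0.17 and -0.18 ± 0.17 for the same comparisons. A further probe set, below the filter, ran the opposite way, at 79.2 and 78.6 (SC), 43.7 and 52.0 (PBS) and 11.0 and 14.3 (N-inv). The sources used here do not name the transcript forms that each probe set reads.

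Of the 11 tested regulators of the early response, 7 were higher and 4 lower in N-inv than in PBS, with a median log2 difference of 0.10. Dusp1, the phosphatase that inactivates MAP kinases, measured 4297 and 4970 (N-inv) against 4894 and 5419 (PBS). Dusp6, the ERK phosphatase, measured 688.0 and 659.9 against 850.8 and 792.4, without overlap (-0.28 ± 0.26, SE). That SE also draws on the SC arrays of Dusp6, which read 536.9 and 934.1. Ier2 measured 660.8 and 525.4 (N-inv) against 516.4 and 388.2, and Ier3 measured 1626 and 2025 against 1568 and 1431, both just without overlap. Ier5, Plk3 and Gadd45g overlapped, with log2 differences from PBS of 0.00, 0.10 and 0.11. Btg2, an antiproliferative gene with a full CRE, measured 861.7 and 639.5 (N-inv) and 838.8 and 809.7 (SC) against 615.9 and 630.6 (PBS). Its difference between SC and PBS was 0.39 ± 0.19, with an adjusted p of 0.683 in limma. Another tested Btg2 probe set read 437.7 and 900.2 (SC), 559.2 and 529.8 (N-inv) and 475.8 and 570.3 (PBS). That probe set overlapped between all 3 groups, with a difference between SC and PBS of 0.26 ± 0.32. Gadd45b, a stress gene linked to DNA demethylation in neurons, disagreed between probe sets. The brightest gave -0.33 ± 0.24 and another 0.48 ± 0.21 in N-inv against PBS. Fosl2, an AP-1 partner of Jun, disagreed likewise, at -0.34 ± 0.44 by its brightest probe set (466.7 and 623.7 against 692.8 and 685.1 in PBS) and 0.57 ± 0.29 by a dimmer one (186.5 and 172.5 against 104.5 and 119.9).

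Against SC, 22 of the 32 genes were lower in N-inv and 10 higher, with a median log2 difference of -0.13, whereas 60.5% of all named genes were higher with a median of 0.06. In limma 0 passed the adjusted threshold (0% of all genes), and the smallest adjusted p was 0.445. At an unadjusted p under 0.05, 3 were lower (Sik1, Nr4a3 and Nfil3) and 0 higher, beside 2.09% and 6.08% of all genes. The arrays did not overlap for 9 genes on the lower side and 1 on the higher, beside 11.4% and 25.4% of all genes. Without SC replicate 2 the median was -0.01, with 15 higher and 17 lower, beside 71.4% of all genes higher. At an unadjusted p under 0.05, 3 were then higher and 2 lower (1613 and 315 of the 12614 genes), and arrays did not overlap for 9 and 10. Without SC replicate 1 the median was -0.27, with 7 higher and 25 lower, beside 44.9% of all genes higher. The unadjusted counts were then 1 and 9 (949 and 890 of all genes), and arrays did not overlap for 5 and 21. The 3 comparisons share arrays, so their values are not independent of each other.

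In SC against PBS, 22 of 32 genes were higher and the median was 0.14, beside 46.8% of all named genes higher and a median of -0.02. In limma 0 passed the adjusted threshold (0% of all genes), 0 had an unadjusted p under 0.05 in either direction, where 2.23% of all genes were higher and 4.47% lower at that level, and the smallest adjusted p was 0.661. The arrays did not overlap for 6 genes on the higher side (Ier3, Btg2, Ptgs2, Plk2, Sik1 and Nfil3) and 2 on the lower (Fos and Klf2), beside 13.7% and 19.8%. Without SC replicate 2 the median was -0.01 with 16 of 32 higher, while 33.3% of all genes were higher with a median of -0.11. At an unadjusted p under 0.05, 2 were then higher and 4 lower (320 and 1208 of the 12614 genes), and arrays did not overlap for 9 and 12. Without SC replicate 1 the median was 0.15 with 26 of 32 higher, beside 60.5% and a median of 0.08. The unadjusted counts were then 7 and 1 (1075 and 770 of all genes), and arrays did not overlap for 19 and 5. A single array is less likely to overlap with a group than a pair, so these counts are not on the footing of those with both arrays. The median of the 32 genes lay above 0 only where SC replicate 2 was in the fit.

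**Figure D3:**
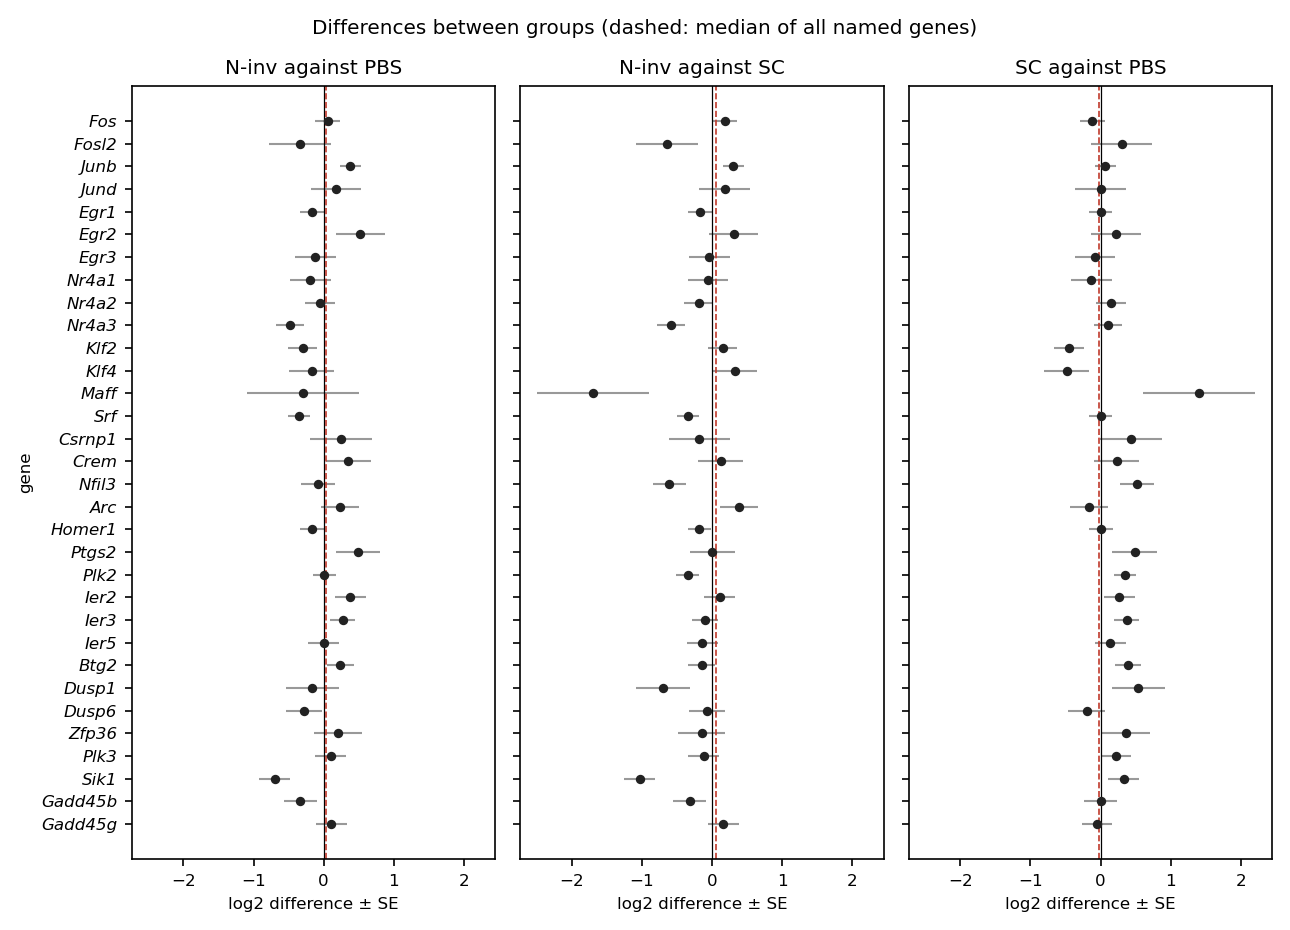
Log2 difference (points) with its standard error (bars) for the 32 tested genes in the 3 comparisons; the dashed line is the median of all named genes. Maff has the widest bars, and the N-inv against SC panel has 22 points below 0.

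The arrays of the SC group differed from each other more than those of PBS. The median gap between replicates over the 32 genes was 0.39 on the log2 scale in SC, 0.31 in N-inv and 0.17 in PBS, beside 0.29, 0.14 and 0.15 for all genes. In SC 7 of 32 genes (beside 3.85% of all genes) had a gap over 1, against 0 in each of the other groups. These 7, named after their values were seen, were Maff, Fosl2, Csrnp1, Dusp1, Jund, Zfp36 and Klf4, each higher in SC replicate 2 than in SC replicate 1. In 4 of the 7, SC replicate 2 lay over 1.5 times above every other array, beside 1.38% of all genes. Klf4 was the 1 gene with SC replicate 1 over 1.5 times below every other array, beside 1.52%.

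Maff, a small Maf factor of the stress response, measured 1468 in SC replicate 2, against 139.9 to 193.6 elsewhere. Its log2 difference was 1.41 ± 0.80 (SE) in SC against PBS, with an adjusted p of 0.728 in limma. Leaving out SC replicate 1 gave 2.84 ± 0.16 and an adjusted p of 0.040, the 1 call among the members in any alternative run, and leaving out SC replicate 2 gave -0.02 ± 0.16. With 1 SC array that array is assumed to vary like the other groups. Dusp1 measured 11539 in SC replicate 2, against 4297 to 5419 in the other 5 arrays. Fosl2 measured 1438 there, against 466.7 to 692.8, and its dimmer probe set 287.8 against 104.5 to 186.5. Csrnp1, a nuclear protein induced by axin, measured 718.0 against 252.5 to 444.4, and Zfp36, which destabilises cytokine mRNAs, 938.6 against 434.4 to 648.3. SC replicate 1 was inside or below the range of PBS and N-inv for each of these 5 genes. In 8 further genes that array was also the highest, by smaller margins: Jund, Nr4a2, Ier3, Ier5, Dusp6, Plk2, Plk3 and Nfil3 lay between 1.03 (Ier3) and 1.23 (Nfil3) times above the next array. Fos, Egr1, Junb and Nr4a1 were not highest there. They measured 5980, 6589, 435.8 and 1090, beside PBS means of 6581, 6707, 402.4 and 1029. Arc was lowest in that array, at 357.1.

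**Figure D4:**
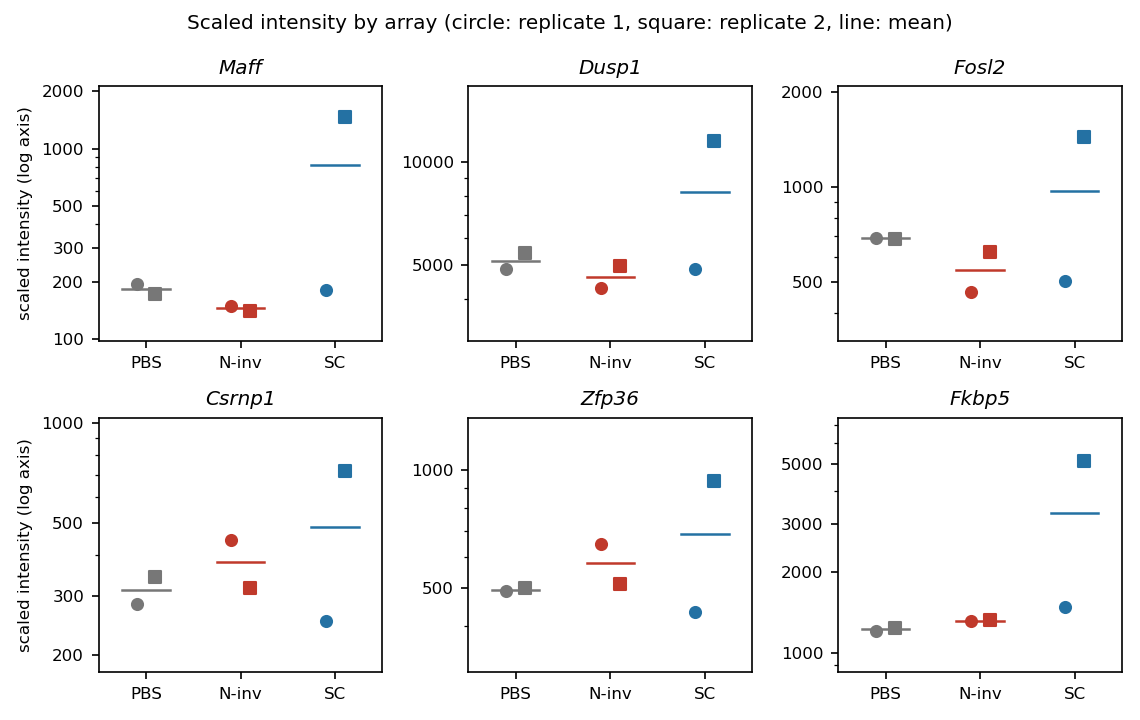
Scaled intensity (log axis) of 5 early genes and of Fkbp5, a glucocorticoid-induced gene, by group, with circles for replicate 1, squares for replicate 2 and a line at the mean. In each panel the square of SC lies above all other points, and the circle of SC lies near or below PBS except for Fkbp5.

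Genes induced by glucocorticoids were also high in SC replicate 2. Of 10 such genes, all tested, 9 were higher in SC than in PBS (median 0.51). The count was 10 without SC replicate 1 and 4 without SC replicate 2. Fkbp5, an immunophilin that restrains the glucocorticoid receptor, measured 5147 in SC replicate 2 and 1211 to 1479 in the other 5 arrays. The cell cycle inhibitor Cdkn1a measured 21953 against 2114 to 3467, and Sult1a1 3205 against 903.2 to 1305. The rise was smaller in Tsc22d3, the 1 gene of the list lower in SC than in PBS (-0.20 ± 0.32, SE). It measured 6733 in SC replicate 2 and 3358 to 5666 in the other 5 arrays. The summed level of the 10 genes was 161800 in SC replicate 2, 60720 in SC replicate 1, 68520 and 75170 (PBS) and 79860 and 68600 (N-inv). Markers of neutrophils, 5 of 5 measured, summed to 2208 and 4025 (SC), 2757 and 730.9 (PBS) and 563.0 and 590.2 (N-inv). The part of these signals, of the Xist level and of the Actb ratio of 4.70 in the early gene values of that array was not tested.

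N-inv replicate 1 was the lowest of the 6 arrays for 13 of 32 early genes, beside 9.28% of all genes. SC replicate 2 was the highest for 13 as well, beside 34.4% of all genes. Without N-inv replicate 2 the median difference from PBS was -0.21, and without N-inv replicate 1 it was 0.04, so the sign of the small median rests on which N-inv array is used.

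The 5 members below the filter were Fosb, Egr4, Npas4, Dusp5 and Trib1. Fosb, whose long-lived form accumulates with repeated activity, read 30.8 and 77.3 (PBS), 139.8 and 104.3 (N-inv), and 273.6 and 125.1 (SC). Both PBS arrays were the lowest of the 6, all but 1 of which lay under the filter cutoff. Npas4, a factor specific to neuronal activity, read between 58.7 and 125.7 and overlapped between all groups. Egr4 read 70.8 and 237.7 (PBS), 26.6 and 180.0 (N-inv), and 99.2 and 118.8 (SC), with overlap. Dusp5 read 26.5 and 26.4 (SC) and 36.2 to 80.8 elsewhere, and the brightest Trib1 probe set 51.5 to 232.2 over the 6 arrays.

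The pathway upstream of these genes was read from a list of 30 signalling genes, of which 23 were measured and tested. In N-inv against PBS 13 were higher and 10 lower (median 0.03), with 0 called in limma and 1 higher and 0 lower at an unadjusted p under 0.05, beside 2.19% and 1.17% of all genes. That gene was Elk3, an SRF partner, at 567.0 and 527.6 (N-inv), 347.6 and 273.6 (PBS) and 272.8 and 396.1 (SC) (0.78 ± 0.22, SE; adjusted p of 1 in limma). In SC against PBS 12 were higher and 11 lower, with 0 at an unadjusted p under 0.05 (2.23% of all genes higher, 4.47% lower).

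Of 40 other early and delayed response genes 39 were tested. In N-inv against PBS 20 were higher and 19 lower, 0 were called in limma, and 5 were higher and 0 lower at an unadjusted p under 0.05, beside 2.19% and 1.17% of all genes. Socs3, the feedback inhibitor of cytokine receptors, measured 988.3 and 733.8 (N-inv) and 569.0 and 992.7 (SC) against 334.5 and 347.6 (PBS), a log2 difference of 1.26 ± 0.28 (SE) in N-inv and 1.09 ± 0.28 in SC. Vgf measured 6330 and 6394 (N-inv) against 2749 and 2880 (PBS), a difference of 1.17 ± 0.28. Nptx2, a synaptic pentraxin, measured 223.8 and 204.6 (N-inv) and 185.9 and 173.8 (SC) against 113.0 and 138.4 (PBS). The Nptx2 difference from PBS was 0.67 ± 0.17 in N-inv and 0.45 ± 0.17 in SC. Atf3 measured 601.2 and 788.5 (N-inv) against 239.4 and 135.4 (PBS), the largest difference of the list at 1.79 ± 0.58. The SC arrays read 3548 and 6479 for Vgf and 166.1 and 681.0 for Atf3. The remaining gene was Myc, at 163.7 and 204.4 (N-inv) and 164.1 and 216.9 (SC) against 71.3 and 139.7 (PBS). The Myc difference from PBS was 0.72 ± 0.29 in N-inv and 0.76 ± 0.29 in SC. Both PBS arrays of Nptx2 and of Myc lay under the filter cutoff of 147.7, so these genes were tested through their tumour arrays. In SC against PBS 29 of the 39 were higher, beside 46.8% of all genes. Of these 9 had an unadjusted p under 0.05, and 0 of the lower ones did, beside 2.23% and 4.47% of all genes. Without SC replicate 2, 15 of the 39 were higher (33.3% of all genes), and 3 higher and 4 lower genes had such a p, beside 320 and 1208 of the 12614. In N-inv against SC 28 were lower and 11 higher, beside 60.5% of all genes higher. Without SC replicate 2, 16 were lower and 23 higher, beside 71.4%. Bhlhe40, a repressor of clock genes, was the gene with the smallest p there, at 3268 and 3317 (N-inv) against 1694 and 2124 (SC) and 2245 and 2652 (PBS) (0.79 ± 0.18 against SC, adjusted p of 0.445 in limma).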

How the data were processed

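Total RNA from L1 cord of 6 mouse samples was amplified by 2-cycle biotin labelling for Affymetrix arrays, per the labels' protocols. Intensities were deposited by the authors on a linear scale, 1 per probe set, and the 2% trimmed mean of every array is 1000. Probe summary and scaling software are not given in the sources used here. After 64 control probe sets were left out, 45037 remained, of which 34945 had 1 gene symbol in the platform annotation, 932 several and 9160 none. Arrays were brought to a shared median of 256.2, log2(intensity + 25.6) was taken, and the 27022 probe sets with a mean log2 value above the 40th percentile were tested. A gene is its brightest probe set. Differences were fitted with limma 3.58.1 in R 4.3.3 (lmFit, eBayes; 1 mean per group over all 6 arrays, 3 residual degrees of freedom, prior 3.72), two-sided, with Benjamini-Hochberg adjustment over all 27022. Precision is limited by the number of arrays, and exact permutation of 2 against 2, which cannot go below p = 0.333, was not run. The script was tested on simulated data. The members, lists and comparisons were chosen with earlier results of these data known. Given with every array's value were Fos, Fosb, Junb, Egr1, Arc, Npas4, Nr4a1 and Dusp1, up to 8 members per comparison with the smallest p among those whose groups do not overlap, and members whose probe sets disagreed; Maff and others in SC were named after their values were seen. Replicate numbers are shared between groups but the labels tie nothing to them. Alternatives covered scaling, pseudocount, filter, samples in the fit, intensity trend, replicate block, probe sets of a gene and leaving out each array.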

Additional observations from a re-analysis of the deposited data

How the results depend on the processing

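Of the 16 alternatives, none called a member in N-inv against PBS or N-inv against SC, and 1 did in SC against PBS (Maff, without SC replicate 1). Over the arrays left out in turn, members called in SC against PBS ran from 0 to 1, and probe sets called from 0 to 1 in N-inv against PBS, 0 to 1 in N-inv against SC and 0 to 9 in SC against PBS. With only the groups compared 1 probe set was called in N-inv against PBS, and with an intensity trend 1 was, and 2 in N-inv against SC. Probe sets at an unadjusted p under 0.05 numbered 1097 (N-inv against PBS), 2417 (against SC) and 2141 (SC against PBS), and ran from 587 to 2204, 1369 to 4384 and 1209 to 4072 over all alternatives. The median log2 difference of the members ran from -0.21 to 0.04 in N-inv against PBS, -0.27 to -0.01 in N-inv against SC and -0.01 to 0.18 in SC against PBS when 1 array was left out, and from -0.06 to 0.04, -0.19 to -0.09 and 0.07 to 0.19 under the other alternatives. Of those others, the intensity trend, the replicate block and the fit of only the groups compared cannot change a log2 difference.

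Some log2 differences turned sign. In N-inv against PBS, Fos ran from -0.11 to 0.23 and Nr4a1 from -0.56 to 0.19 as arrays were left out, and Srf was at 0.00 with the mean of its probe sets. In N-inv against SC, Arc ran from -0.01 to 0.78 and Nr4a1 from -0.43 to 0.32. In SC against PBS, Arc ran from -0.55 to 0.24, Dusp1 from -0.08 to 1.16, Egr1 from -0.14 to 0.15 and Nr4a1 from -0.35 to 0.09. Maff ran from -3.13 to -0.27 in N-inv against SC. The cause of the remaining changes was not tested.

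The replicate numbers did not pair the arrays: deviations of same-numbered arrays correlated at 0.01 (PBS and N-inv), 0.04 (PBS and SC) and -0.03 (N-inv and SC). Because every group holds both replicate numbers, the replicate block cannot change a log2 difference. The member medians therefore stayed at -0.02, -0.13 and 0.14 for N-inv against PBS, then against SC, then SC against PBS. With the block, 0 members and 0 probe sets were called in each. With 2 arrays a group, signals near the filter of 147.7, such as Sik1, or under it, such as Fosb, are the least reliable.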
